A study of Rattus norvegicus with 18 samples.

Results

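The cytosolic ribosomal protein genes encode the protein parts of the small and the large subunit of the ribosome that translates nuclear mRNAs. The genes were chosen by name (Rpl, Rps or Rplp followed by a digit), leaving out the Rps6k kinases and paralogs with an l suffix, and a gene was kept when the scanner software rated its Cy5 signal well above background on 5 or more of the 18 arrays. All 70 genes that matched the name rule were kept, of 21591 genes kept on the array, and each of the 70 was well above background on all 18 arrays. They comprise 30 small-subunit and 40 large-subunit genes. Of 80 cytosolic ribosomal protein genes in a list written from textbook knowledge, 6 more were on the array under other names and are treated separately.

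The RNA came from peripheral blood mononuclear cells (PBMC), the lymphocytes and monocytes that remain after a Ficoll gradient, of 18 male Wistar rats, an outbred strain without engineered alleles. From an age of 2 months the rats ate 1 of 3 purified diets for 4 months, and all were fasted for 14 h before they were killed. The low-fat control diet (LFD, 6 rats, eaten freely) drew its energy to 70% from carbohydrate, 20% from protein and 10% from fat. The high-fat diet (HFD, 6 rats) drew 20% from carbohydrate, 20% from protein and 60% from fat, and the high-protein diet (HPD, 6 rats) drew 45% from carbohydrate, 45% from protein, mainly casein, and 10% from fat. Both were fed in amounts matched to the energy that the control rats ate. Each rat's RNA was labelled with Cy5 and hybridised to a 2-colour array against a Cy3-labelled pool of RNA, so every value below is a log2 ratio of 1 rat to that pool. Dyes were not swapped. One array is titled as HFD replicate 7 and described by its source as HPD. It is counted here as HPD replicate 7.

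Each cytosolic ribosome needs about equal numbers of its proteins, and the genes are known for abundant mRNAs that begin with a run of pyrimidines, the 5′ terminal oligopyrimidine tract. Through this tract their translation, rather than their mRNA level, responds to nutrients by way of the kinase mTOR. In blood cells ribosomal protein mRNAs are known to be most abundant in lymphocytes and to be low in mature granulocytes. Protein intake is 1 of the inputs known to act on mTOR, and the present arrays measure mRNA and not translation.

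Pyrimidine runs were searched for at the annotated start sites of these genes. RefSeq promoter windows (GRCr8, 250 bases before to 50 bases after the start, 300 bases) matched 56 of the 70 genes. The 8 that follow are 30-base stretches centred on the annotated start, 15 bases to each side, for genes whose values are described further on. Capitals mark the first run of a C followed by at least 4 C or T that begins within 10 bases of the start. Only the sense strand was read. Later runs, and bases of a run that lie before its first C within 10 bases, stay in lower case.
Rps6, chr5:106420526-106420555, minus strand: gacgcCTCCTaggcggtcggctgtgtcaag
Rps23, chr2:23814502-23814531, plus strand: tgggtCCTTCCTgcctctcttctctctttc
Rpl31, chr9:49143096-49143125, plus strand: ccacaatCCCTCgcgcctttcctttccaac
Rpl37a, chr9:81748076-81748105, plus strand: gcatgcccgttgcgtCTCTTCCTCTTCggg
Rpl35, chr3:43165907-43165936, minus strand: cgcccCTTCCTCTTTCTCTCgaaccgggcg
Rpl35a, chr11:81235007-81235036, minus strand: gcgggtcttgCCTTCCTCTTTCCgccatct
Rps15, chr7:10068101-10068130, minus strand: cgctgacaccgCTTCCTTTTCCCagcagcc
Rpl3, chr7:113507976-113508005, minus strand: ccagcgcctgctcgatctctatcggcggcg

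Such a tract was found in 42 of the 56 genes (75%) and in 28.9% of all 33469 RefSeq promoter windows. In 14 of the 42, Rps6, Rps23 and Rpl31 among them, the marked run ends before the annotated start. That run thus lies outside the annotated mRNA. Rps23 and Rpl31 also hold a later, unmarked run that meets the rule and lies at the start. The first run reached or followed the start in 28 of the 56 genes (50%) and in 19.5% of all windows. Later runs in a window were not examined, so both shares are lower bounds for any run that does so. The first runs, as marked by this rule, had a median length of 8 bases and the longest had 16. A run that began farther upstream was counted only from its first C within 10 bases. The motif CTTTC, which can overlap the tract, began within 15 bases of the start in 26 of the 56 (46.4%) and in 4.22% of all windows. On either strand of the 300 bases, CCGGAAG was present in 17 of 56 genes (30.4%, against 8.75% of all windows), GGGCGG in 30 (53.6%, against 33.1%) and GCCATNTT in 8 (14.3%, against 6.96%). The window of Rpl3 holds no tract by this rule, which says only that these letters are not near its annotated start.

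Before the results, the arrays themselves need a short account. The 18 arrays lay on 5 slides, and slide 1 held LFD replicates 1 and 2 and HFD replicates 1 and 2 and no HPD array. Slide 2 held HFD replicate 3 and HPD replicates 1, 3 and 7 and no LFD array. Between 53.1% and 63.4% of all probes were well above background per array. HFD replicates 1 and 6 were the most alike pair of arrays (r = 0.62 over all genes, next highest 0.51). The defining PBMC markers Cd3e (T cells), Prf1 (cytotoxic cells) and Cd14 (monocytes) were well above background on all 18 arrays. Ptprc and Cd79a were not matched by name. Markers of other blood cells were also well above background on all 18 arrays. These were 17 of 18 erythroid, 10 of 10 platelet and 4 of 8 neutrophil markers kept. The platelet marker mean ran from -1.84 in HFD replicate 2 to 1.30 in LFD replicate 2.

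No ribosomal protein gene passed the test for a diet difference. limma with Benjamini-Hochberg adjustment over 21591 genes called 0 genes at an adjusted p under 0.05 in each of the 3 comparisons (0% of all genes), and 0 of the 70. At an unadjusted p under 0.05 there were 0 of the 70 for HFD against LFD (2.12% of all genes), 1 for HPD against LFD (2.97%) and 1 for HPD against HFD (3.12%). A fit of any diet difference gave 0 calls and 1 of the 70, Rps6, at an unadjusted p under 0.05 (2.43% of all genes). In 0 of the 70 did the values of 2 diets fail to overlap. Over all genes the share without overlap was 0.0417% higher and 0.0509% lower in HFD than LFD, 0.0556% and 0.0324% in HPD than LFD, and 0.162% and 0.0741% in HPD than HFD. The 3 comparisons share their arrays in pairs and are given side by side only.

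The median over the 70 genes lay close to 0 in every diet. By array it was -0.046, -0.22, 0.071, 0.018, 0.10 and 0.068 for LFD replicates 1 to 6. It was -0.12, 0.015, -0.0020, 0.11, 0.014 and -0.065 for HFD replicates 1 to 6, and 0.051, -0.0099, 0.016, 0.12, 0.090 and 0.010 for HPD replicates 1 to 5 and 7. The lowest arrays were LFD replicate 2 and HFD replicate 1, both on slide 1, and the 3 diets overlapped. The diet means were -0.0012 ± 0.12 for LFD, -0.0089 ± 0.079 for HFD and 0.047 ± 0.051 for HPD (SD, n = 6 each).

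**Figure D1:**
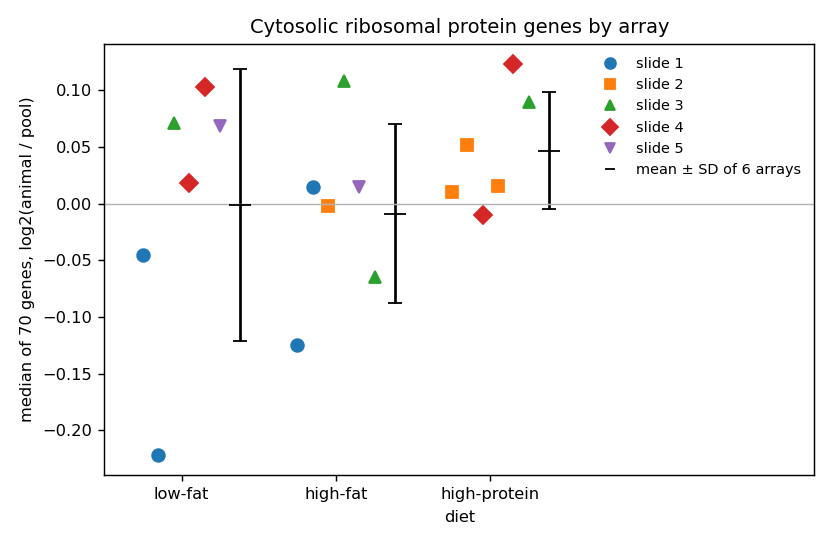
Median log2 ratio of the 70 ribosomal protein genes on each array (y axis, animal over pool) by diet (x axis), with the slide as colour and shape and the mean ± SD of 6 arrays in black. The lowest array, LFD replicate 2 at -0.22, lies on slide 1, and the HPD arrays sit between -0.0099 and 0.12, within the range of the LFD arrays apart from the highest.

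In HPD against LFD the 70 genes had small differences of mostly one sign. The log2 difference was above 0 in 63 of 70 genes, with a median of 0.057 and a range from -0.11 to 0.26, beside 55.0% of all genes above 0 and a median of 0.023. The median standard error of a gene was 0.10, so the typical difference was smaller than its own error. The count and the sign depended on the arrays and on the scale. It was 35 of 70 without slide 1 (median 0.0015), 39 of 70 within slide 3 (0.028), 30 of 70 within slide 4 (-0.014), and 47 of 70 with slide as a block (0.032). Slide 3 set only HPD replicate 5 against LFD replicate 3. Slide 4 set HPD replicates 2 and 4 against LFD replicates 4 and 5. With the Cy5 signal alone, scaled by each array's 75th percentile, the count was 19 of 70 and the median turned to -0.048. In the authors' deposited table of log2 values it was 70 of 70 with a median of 0.17. Leaving out LFD replicate 2 gave 42 of 70 and a median of 0.021.

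By subunit, 26 of 30 small-subunit genes and 37 of 40 large-subunit genes were above 0 in HPD against LFD, with medians of 0.057 and 0.059. The marker lists of blood cell types moved in different ways between the same groups. Of 12 monocyte markers kept 11 were lower in HPD (median -0.28), as were 17 of 18 erythroid markers (-0.48), 10 of 10 platelet markers (-0.53) and 12 of 14 NK and cytotoxic cell markers (-0.16). Of 8 neutrophil markers 3 were higher in HPD (median -0.14), of 17 T cell markers 10 were (0.026) and of 8 B cell markers 7 were (0.13). No marker of these lists passed limma's threshold. The mean log2 ratio of the monocyte markers ranged from -0.49 to 0.48 in LFD and from -1.28 to 0.27 in HPD. The part of cell makeup in the ribosomal protein values was not tested, and in such bulk samples fewer cells of a type and less RNA per cell cannot be told apart.

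For HFD against LFD the signs were mixed. The difference was above 0 in 38 of 70 genes (50.2% of all genes), with a median of 0.0061 beside 0.00064 for all genes. The direction depended on the scale, with 8 of 70 above 0 and a median of -0.16 for Cy5 alone, and 3 of 70 and -0.15 in the authors' deposited table. For HPD against HFD, 57 of 70 were above 0 (54.5% of all genes), with a median of 0.059 beside 0.020. That count was 51 within slide 2, 57 within slide 3, 58 with Cy5 alone and 70 in the authors' deposited table, where the median was 0.32. Slide 2 set HPD replicates 1, 3 and 7 against HFD replicate 3 alone. Slide 3 set HPD replicate 5 alone against HFD replicates 4 and 6. With slide as a block the count was 44 (median 0.024), after scaling between arrays 45 (0.024) and after centring each array 48 (0.030). Without HFD replicate 1 it was 52 and the median 0.038.

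**Figure D2:**
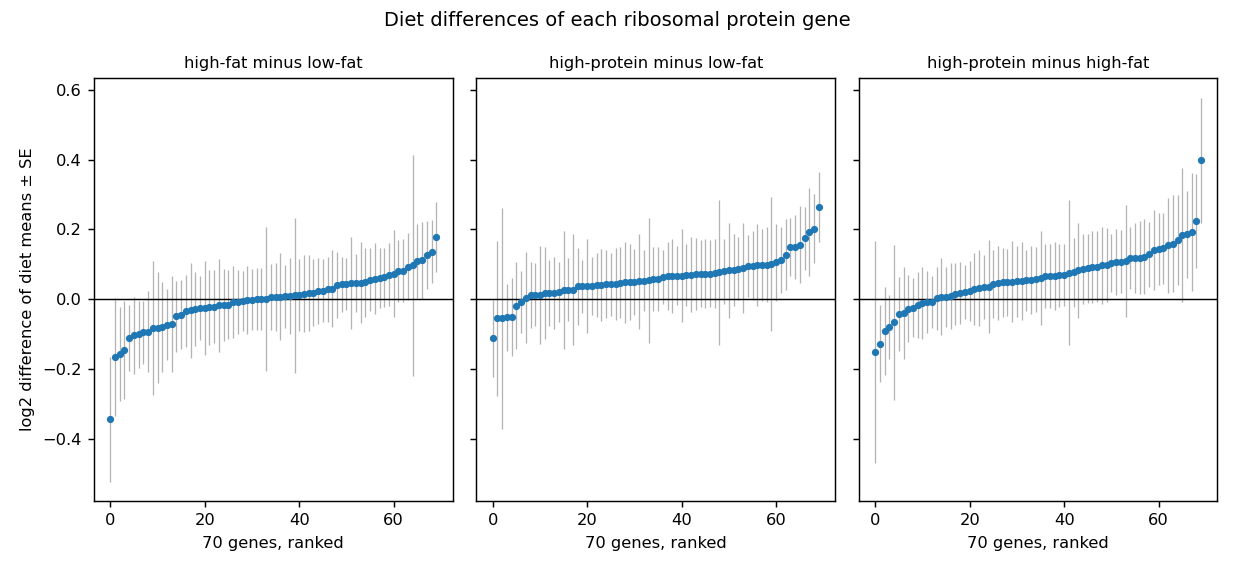
Log2 difference of the diet means ± SE (y axis) for the 70 genes ranked within each comparison (x axis), from limma over 18 arrays. The medians are 0.0061, 0.057 and 0.059 from left to right.

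Rps6, the small-subunit protein that S6 kinase phosphorylates downstream of mTOR, had the smallest p of the 70 in HPD against LFD. Its probe lies at chr5:106165662-106165721 of rn4, minus strand. Its log2 ratios were 0.24, 0.069, 0.20, -0.11, 0.14 and 0.31 in LFD replicates 1 to 6. In HPD they were 0.29, 0.22, 0.48, 0.41 and 0.53 in replicates 1 to 5 and 0.50 in replicate 7. Most HPD rats were above the LFD rats, but 2 of the HPD values fell inside the LFD range. The difference was 0.26 ± 0.10 (SE; limma unadjusted p = 0.0173, adjusted p = 1.00), and it was -0.028 with Cy5 alone. In HFD the values ran from 0.16 to 0.51 with a mean of 0.32 ± 0.14 (SD, n = 6), which put HFD 0.18 above LFD.

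Rps23, which lies near the decoding centre of the small subunit, and Rps28, another small-subunit protein, had the next smallest p among the genes above 0 in HPD against LFD. The mean of Rps23 was 0.39 ± 0.099 in LFD, 0.52 ± 0.17 in HFD and 0.60 ± 0.13 in HPD (SD, n = 6), a difference of 0.20 between HPD and LFD. With Cy5 alone that difference was -0.30. Rps28 had means of -0.087 ± 0.11, -0.031 ± 0.084 and 0.087 ± 0.14 in the same order. The diets overlapped for both genes.

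The genes below 0 in HPD against LFD were 7, and Rpl6 and Rps2 were among the 3 with the smallest p. Rpl6 had a difference of -0.11, with LFD values of 0.32, 0.23, 0.11, 0.10, 0.19 and -0.41 and HPD values from -0.18 to 0.14. One LFD rat, replicate 6, lay below all others. The difference was -0.21 without that array and -0.066 without LFD replicate 1. Rps2 differed by -0.052, which became -0.014 without LFD replicate 5 and -0.11 without LFD replicate 2. Its further probes gave 0.039, -0.0080 and 0.014 in the same comparison.

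Rpl37a, a zinc-finger protein of the large subunit, had the smallest p in HPD against HFD. Its log2 ratios were -0.55, -0.68, -0.012, -0.045, -0.10 and -0.46 in HFD replicates 1 to 6. In HPD they were 0.31, 0.21, -0.34, 0.46 and -0.052 in replicates 1 to 5 and -0.039 in replicate 7. The HPD values were mostly higher, yet the groups overlapped, and the difference was 0.40 ± 0.18 (SE; limma unadjusted p = 0.0393, adjusted p = 0.994). This probe is the dimmest of the 70 by far, with a mean Cy5 signal of 138 units where the next, Rps26, had 8304. Rps3, which forms part of the mRNA entry channel, differed by 0.22 and Rpl31, at the exit of the peptide tunnel, by 0.19 in the same comparison. Among those with the smallest p below 0 were Rpl6 at -0.13 and Rps4x at -0.092 (-0.057 without HPD replicate 7). Both turned positive in the authors' deposited table.

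In HFD against LFD the leading genes above 0 included Rps6 at 0.18 and Rps23 at 0.13. Below 0 they were Rpl37a at -0.34, Rps19, a protein needed for small-subunit maturation, at -0.11, and Rps3 at -0.16. Rps3 ran from -0.083 without LFD replicate 6 to -0.25 without LFD replicate 2, and Rps23 was 0.071 without HFD replicate 4. None reached an unadjusted p under 0.05.

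The stalk proteins Rplp1 and Rplp2, which recruit elongation factors to the large subunit, varied little. Rplp1 had means of 0.097 ± 0.094 in LFD, 0.095 ± 0.13 in HFD and 0.15 ± 0.095 in HPD (SD, n = 6). Rplp2 had -0.020 ± 0.13, 0.0046 ± 0.13 and 0.0068 ± 0.063. Their partner Rplp0, listed on the array as Arbp, had -0.15 ± 0.29, -0.15 ± 0.11 and -0.077 ± 0.15. Rps27a, made as a fusion with ubiquitin, had 0.11 ± 0.30, 0.095 ± 0.17 and 0.13 ± 0.14. Rpl22, whose loss is known to impair T cell development, had 0.029 ± 0.20, -0.015 ± 0.10 and 0.10 ± 0.084. Rpl13a, often used as a reference gene in PCR, had 0.019 ± 0.16, -0.014 ± 0.17 and 0.037 ± 0.10. None of these genes reached an unadjusted p under 0.05 in a diet comparison.

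Other ribosomal protein genes kept under names outside the rule also overlapped between the diets. Fau, which carries Rps30, had means of 0.083 ± 0.14 in LFD, 0.075 ± 0.087 in HFD and 0.072 ± 0.11 in HPD. The scaffold protein Rack1, listed as Gnb2l1, had -0.072 ± 0.15, -0.13 ± 0.10 and -0.071 ± 0.11. Rpsa had the widest gap, at -0.084 ± 0.29, -0.33 ± 0.21 and -0.11 ± 0.25, and its groups overlapped.

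Genes of the same pathway also gave no call. Of 21 other mRNAs known for a pyrimidine tract, mostly translation factors, 13 were above 0 in HPD against LFD (median 0.025) and 15 in HFD against LFD (0.030). Of 32 ribosome biogenesis genes 18 were above 0 in HPD against LFD (median 0.012), and of 15 genes of the mTOR, S6 kinase and Myc group 7 were (-0.0064). The elongation factors Eef1a1 and Eef2 spread widely in LFD, with means of -0.079 ± 1.1 and -0.087 ± 0.69. In HPD they stood at -0.30 ± 0.34 and -0.36 ± 0.42. Tpt1, another tract mRNA, had -0.0057 ± 0.10 in LFD and 0.064 ± 0.25 in HPD. Mtor, listed as Frap1, had -0.15 ± 0.80 in LFD, 0.0070 ± 0.15 in HFD and -0.25 ± 0.15 in HPD. The Mtor probe was dim, with a mean Cy5 signal of 134 units. Its LFD values ran from -1.51 in replicate 6 to 0.79 in replicate 2. Rps6kb1, a kinase target of Mtor, had -0.088 ± 0.24, 0.0065 ± 0.20 and 0.11 ± 0.13 in the same order of diets. Myc, a transcription factor of ribosome genes, had -0.19 ± 0.41, -0.093 ± 0.21 and -0.071 ± 0.28.

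On the processed ratios the ribosomal protein genes varied less between rats of 1 diet than most genes did, but the order depended on the processing. Their median within-diet SD was 0.15 log2 units, against 0.36 over all genes kept, and 67 of the 70 (95.7%) lay below the median of all genes. Related lists shared this. Below that median lay 59 of 64 mitochondrial ribosomal protein genes (median SD 0.19) and 29 of 32 ribosome biogenesis genes (0.21). So did 15 of the 21 other tract mRNAs (0.18). Genes near the top of the signal range were not compared separately. Rpl17, at the rim of the peptide exit tunnel, had the smallest SD, 0.064, with values from -0.22 to -0.012 over the 18 arrays. Rpl36a (0.078) and Rpl35 (0.094) followed. The median SD of the 70 was the higher one in the authors' deposited table (0.42, all genes 0.26) and after normexp and loess on all spots (0.17, all genes 0.15). It was the lower one in 34 of 36 alternatives, but most of these start from the same processed ratios. Among the rest it was lower with Cy5 alone (0.20, all genes 0.36). It was also lower after normexp and loess with marked spots left out of the model (0.15, all genes 0.17).

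**Figure D3:**
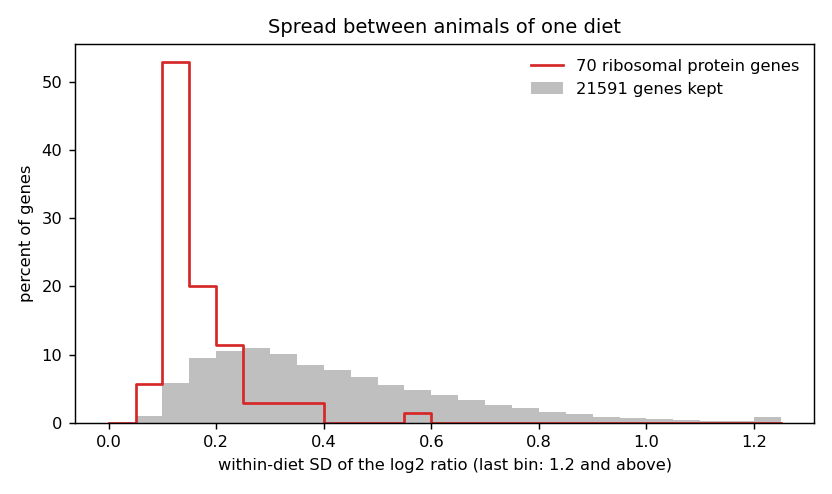
Percent of genes (y axis) by within-diet SD of the log2 ratio in bins of 0.05 (x axis), for the 70 ribosomal protein genes (line) and 21591 genes kept (bars). The median is 0.15 for the 70 and 0.36 for all genes on this scale, an order that turns in the authors' deposited table and after normexp and loess on all spots.

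Rpl4, Rpl3 and Rps15 had the largest within-diet SDs, 0.58, 0.40 and 0.37. Rpl4, a large-subunit protein that lines the exit tunnel, had 0.73, 0.98, -0.32, -0.19, -0.35 and -1.33 in LFD replicates 1 to 6. In HFD replicates 1 to 6 it had -0.043, 0.72, 0.35, -0.12, -0.31 and -0.49. Its highest values were LFD replicates 1 and 2 and HFD replicate 2, all on slide 1. Rpl3, which shapes the peptidyl transferase centre, had 0.35, 0.40, 0.10, 0.15, 0.28 and -1.33 in LFD, and Rps15, at the head of the small subunit, had -0.16, 0.030, -0.091, -0.22, -0.023 and -1.49. For both genes LFD replicate 6 was the lowest of the 18 arrays. HPD replicate 7 was the next lowest, at -0.44 for Rpl3 and -0.67 for Rps15. Without LFD replicate 6 the within-diet SDs were 0.15 and 0.17. A second probe of Rps15 did not follow the first (r = -0.25 over 18 arrays). LFD replicate 6 also had the lowest mean of 17 T cell markers among the LFD arrays, -0.63. Its part in these values was not tested.

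**Figure D4:**
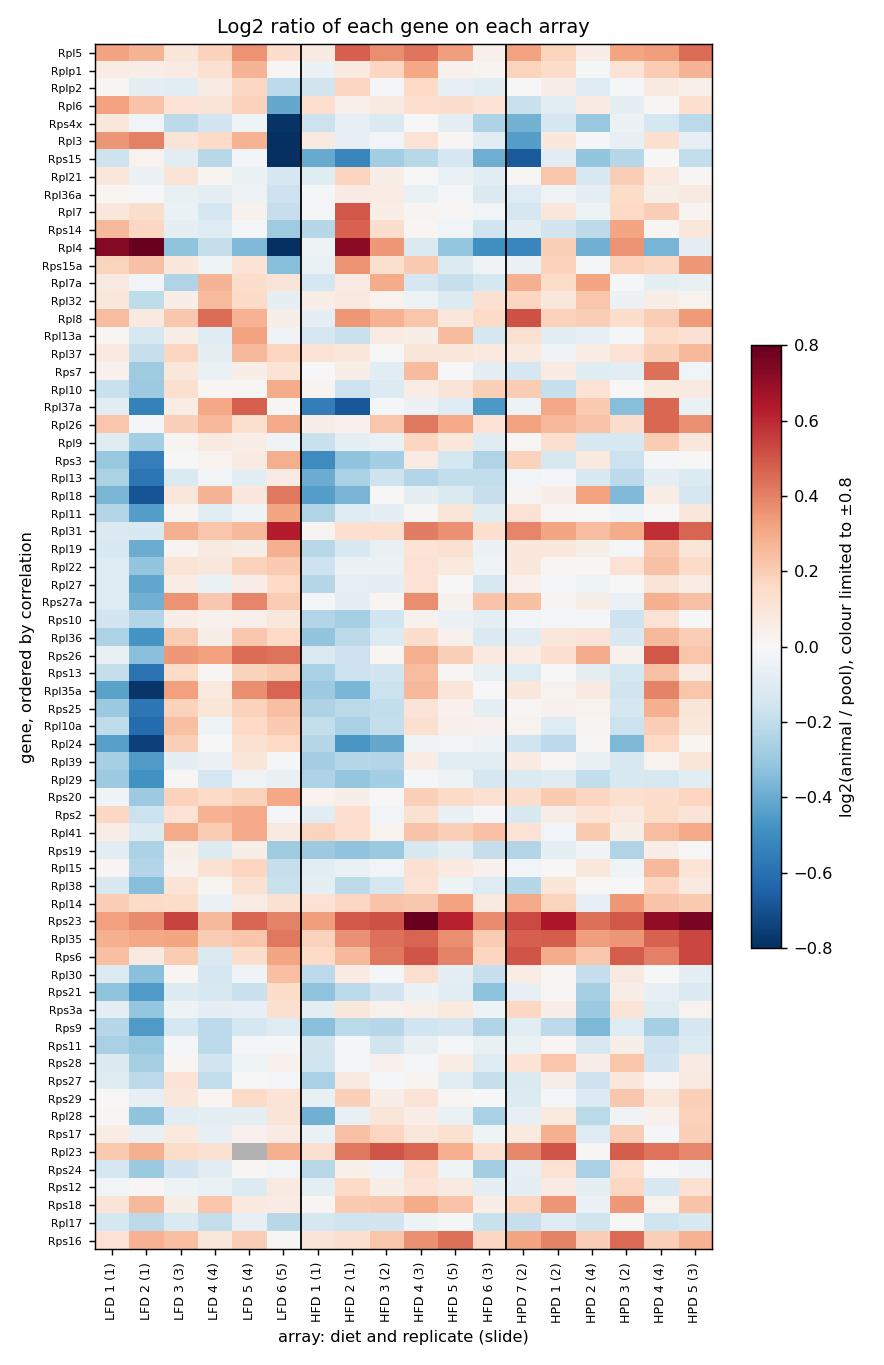
Log2 ratio of 68 of the 70 genes (rows, ordered by correlation) on each of 18 arrays (columns, diet and replicate with the slide in brackets), in colour limited to ±0.8, with grey for a missing spot. LFD replicate 2 is blue for most genes below the upper block, and Rpl3, Rpl4 and Rps15 are dark blue in LFD replicate 6.

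Across the 18 arrays most genes moved in parallel, although a minority did not. The median Pearson r over 2415 gene pairs was 0.30, and 73.9% of pairs were above 0. The arrays share 1 pool and 5 slides, so these correlations are descriptions. The closest pair was Rpl35a and Rps25 (r = 0.98) and the most opposed was Rpl10 and Rpl4 (-0.93). Clustering on these values, chosen after they were seen, put 56 genes in 1 block (median r within it 0.44) and 14 in another (0.52). The smaller block included Rpl3, Rpl4, Rpl5, Rpl6, Rpl7, Rpl21, Rpl36a, Rplp1, Rplp2, Rps4x, Rps14, Rps15 and Rps15a. The median r between blocks was -0.056. How tightly the 70 moved depended on the scale. The median r was 0.94 in the authors' deposited table, 0.49 after normexp and loess on all spots, 0.20 after centring each array, 0.16 after scaling between arrays and 0.17 without slide 1.

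**Figure D5:**
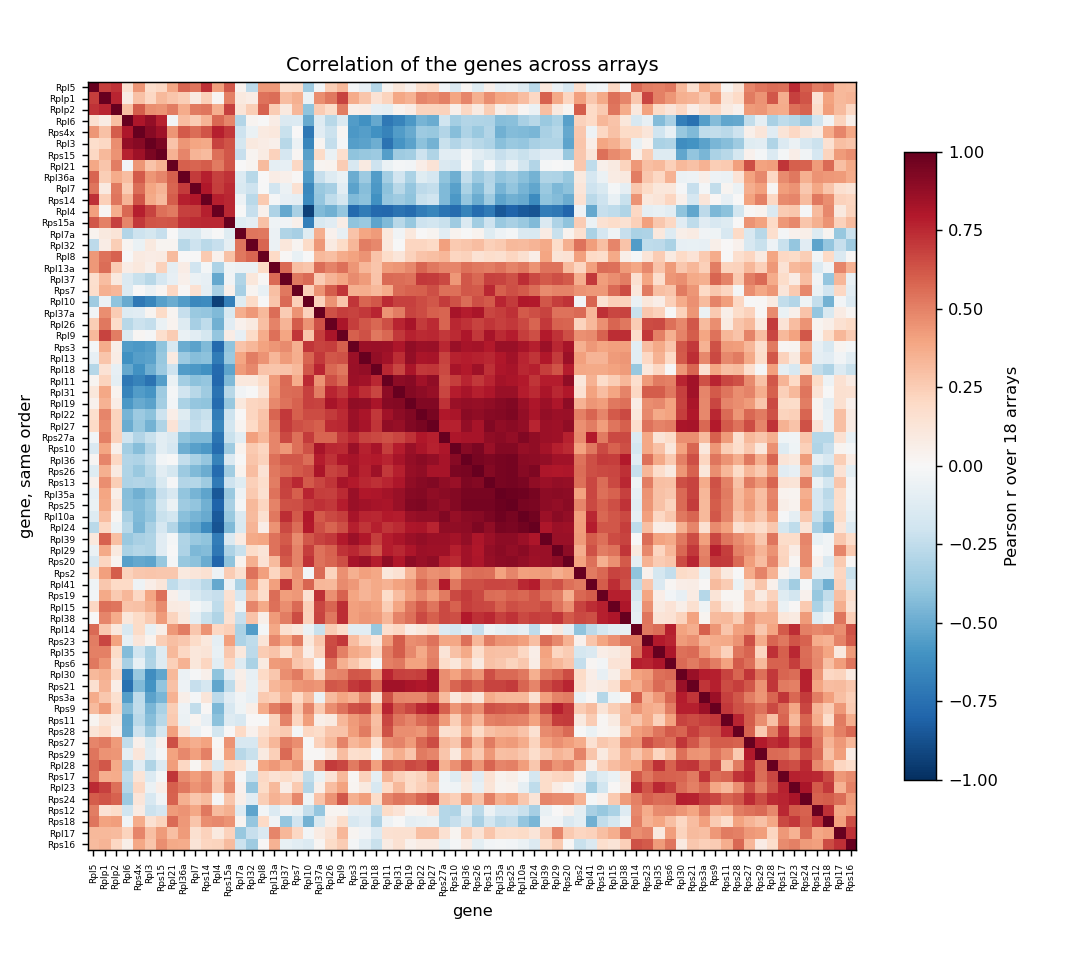
Pearson r over 18 arrays between each pair of 68 of the 70 genes (both axes, ordered by correlation; red above 0, blue below). The smaller block, 13 genes of which are drawn, stands at the upper left, and over all 70 genes the median r between the blocks was -0.056.

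The array medians of the 70 genes also moved with other measures of the arrays. Their r was 0.80 with the median of all genes and -0.80 with the median Cy5 signal (n = 18 arrays each). With the marker means it was -0.69 for monocytes, -0.63 for NK and cytotoxic cells, -0.62 for platelets and -0.61 for erythroid cells. It was -0.43 for B cells, -0.41 for neutrophils and 0.059 for T cells. The median of the 14-gene block had an r of 0.87 with the T cell marker mean, and 0.78 without the 2 farthest arrays. With the other marker means its r ran from -0.43 (B cells) to 0.26 (NK and cytotoxic cells). The part of these measures in the gene values was not tested. The median of 64 mitochondrial ribosomal protein genes, a list added after seeing the data, had an r of 0.82 with that of the 70. Of those 64, 54 were above 0 in HPD against LFD (median 0.079) and 16 in HFD against LFD (-0.044). In HPD against HFD 59 of them were above 0 (median 0.12).

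Slide also gave no call among these genes. limma with diet in the fit called 44 of 21591 genes for slide (0.204%) and 0 of the 70, while at an unadjusted p under 0.05 there were 16 of the 70 beside 22.2% of all genes, a share near that background. The smallest adjusted p-values were those of Rpl35a (0.0907), Rps26 (0.0930) and Rpl24 (0.0935). Rpl35a had -0.43, -0.78, -0.29 and -0.36 on the 4 arrays of slide 1 and values from -0.17 to 0.47 on the other slides. All 4 arrays of slide 1 lay below the rest. The median of the 70 ran from -0.22 to 0.015 on slide 1 and from -0.065 to 0.12 on slides 2 to 5. In the authors' deposited table limma called 56 of the 70 for slide.

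Probe identity limits single genes. Of the 70, 25 have several probes, and 35 further probes had a median r of 0.71 with the brightest probe of their gene. The sign of HPD against LFD was opposite for 7 of the 35. For 10 of the 70 the rn4 position of the probe is not on the chromosome of the matched RefSeq gene, Rpl35a among them. They include Rpl36, whose probe lies on unplaced sequence of rn4. The accessions of 2 of the 70, Rpl36a and Rpl37, match the RefSeq paralogs Rpl36al1 and Rpl37l1, so these members bear the array's name for what RefSeq now gives an l suffix, and the start-site window counted for Rpl36a is that of the paralog. Ribosomal protein genes have many processed copies, and 294 further kept probes are described in the files as similar to a ribosomal protein, so a probe may read more than 1 locus. The 287 names of those probes, a group chosen after seeing the data, were above 0 in 253 cases for HPD against LFD (median 0.078) and in 56 for HFD against LFD (-0.074). For HPD against HFD 267 were above 0 (median 0.14).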

How the data were processed

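The authors hybridised Cy5-labelled RNA of 18 rats against a Cy3 pool and, per the labels and the submitters' processing notes, read the arrays with Agilent Feature Extraction 10.5.1.1. The deposited intensity columns are the processed red and green signals, background-subtracted and dye-normalised per the file headers. The deposited log2 table holds the authors' values for the same arrays; its column medians are all 8.40, and no source used here states its normalization. From the intensities, log2(red/green) was taken, spots marked as outliers (38 of the members' spots) were set to missing, spots were averaged per probe, probes well above background in Cy5 on at least 5 of 18 arrays were kept, and the brightest probe stood for a gene. limma 3.58.1 in R 4.3.3 fitted the 3 diets over all 18 arrays, with Benjamini-Hochberg adjustment over 21591 genes; it was tested on simulated data. Precision is limited by the number of arrays. The genes named are the 3 members with the smallest p in each direction per comparison, those with extreme spread or slide p, and a fixed list. Members and lists were chosen with earlier results of these data known. Gene names are those of the array design, matched to RefSeq. Some genes that the naming rule selects are not reported singly here and remain in the counts over the 70.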

Additional observations from a re-analysis of the deposited data

Results flagged for a closer look

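In 111 sets of 6 arrays of 1 diet, 8 held an array far from the other 5 by Dixon's gap over range. Chance gives about 1 in 20 for unrelated sets that were not chosen by their spread. That rate cannot be set against the 8 of 111 here. The sets share the same arrays, and Rpl3 and Rps15 were named for their large within-diet SD. LFD replicate 6 was far below the others for Rpl6 (-0.41, next 0.10), Rps4x (-0.79, next -0.21), Rpl3 (-1.33, next 0.10), Rps15 (-1.49, next -0.22) and Arbp (-0.71, next -0.11). HPD replicate 7, the array with conflicting labels, was far below for Rps2 (-0.12, next 0.054) and Rpl3 (-0.44, next -0.067). LFD replicate 2 was far below for the median of the large-subunit genes (-0.21, next 0.011).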

How the results depend on the processing

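No ribosomal protein gene was called for diet under any alternative run. With array quality weights limma called 2 genes of the whole array in HPD against LFD, and 1 without LFD replicate 2. Genes above 0 among the 70 moved by over 1.5 times in HPD against LFD without slide 1 (35), with Cy5 alone (19), within slide 3 (39) and within slide 4 (30), and in HFD against LFD with Cy5 alone (8), in the deposited table (3) and with array weights (23). Their median difference was -0.16 (HFD against LFD) and -0.048 (HPD against LFD) with Cy5 alone, and -0.15, 0.17 and 0.32 (HPD against HFD) in the deposited table, where the median SD was 0.42 (all genes 0.26). Leaving out 1 array at a time gave 42 to 67 genes above 0 in HPD against LFD, 26 to 49 in HFD against LFD and 51 to 61 in HPD against HFD. The median pairwise r was 0.49 after normexp and loess on all spots, 0.94 in the deposited table, 0.16 after scaling, 0.20 after centring and 0.17 without slide 1. Genes called for slide were 516 and 587 under the 2 normexp models (4 of the 70 in each), 128 with Cy5 alone, 1807 in the deposited table (56 of the 70) and 74 after scaling. The cause of these changes was not tested.

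All 111 planned differences of 37 named genes were recomputed under 36 settings. Of the 3993 values 360 had the other sign and 0 passed an adjusted p of 0.05. Of the 1998 that left out 1 array, 134 had the other sign, and of 259 within-slide values 86 did. Some within-slide values set 1 array against 1 array. Cy5 alone turned 45 of the 111 differences, and 30 turned with the deposited values. Among the 15 differences the report gives for single genes by comparison, Cy5 alone turned Rps6 (-0.040) and Rps23 (-0.24) in HFD against LFD, Rps6 (-0.028), Rps23 (-0.30), Rps28 (-0.037), Rpl6 (0.082) and Rps2 (0.00386) in HPD against LFD, and Rpl6 (0.10) and Rps4x (0.050) in HPD against HFD. The deposited table turned Rps23 (-0.049) in HFD against LFD, Rpl6 (0.032) and Rps2 (0.079) in HPD against LFD, and Rpl6 (0.19) and Rps4x (0.14) in HPD against HFD.

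With the replicate number as a block, genes above 0 were 38, 61 and 55 of 70 and no call changed; same-numbered arrays did not pair (median r of their deviations 0.0075 over 16 pairs). Leaving out the dim Rpl37a probe, an alternative chosen after seeing the data, gave medians of 0.0061, 0.058 and 0.057 in HFD against LFD, HPD against LFD and HPD against HFD.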
